A study of Mus musculus and Homo sapiens with 33 samples.

Results

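The GAS2 family genes Gas2, Gas2l1 and Gas2l3 were followed in the RNA of KPL cells, which are mouse lung adenocarcinoma cells, in control cultures and in cultures treated to delete Lin9. The members were chosen by their gene symbol in the count matrix, which gave 3 genes of 38924, and all 3 passed the filter on low counts that left 13355 genes for testing. The 3 control libraries, described as ethanol-treated, were compared with 3 libraries of cells given 4-hydroxytamoxifen (4-OHT) for 72 hours at a dose the labels write as 10 nm. Per the labels, 4-OHT deletes Lin9 in these cells, and all libraries are polyadenylated RNA of the same line. Alleles other than Lin9 and the source of the recombinase are not stated by the labels, and no 4-OHT-treated cells with intact Lin9 are among the RNA samples, so effects of the drug and of the deletion cannot be told apart.

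Proteins of the GAS2 family join the actin and microtubule networks. They carry a calponin homology domain, which contacts actin, and a GAS2-related domain, which contacts microtubules. Gas2, the founding member, was found as a gene induced in growth-arrested fibroblasts, and its protein is cut by caspases in apoptosis. Gas2l1 encodes a linker that binds microtubule ends and is also found at the centrosome. Gas2l3 encodes a linker of the central spindle and midbody that acts in cytokinesis and binds the chromosomal passenger complex. LIN9 is a core subunit of MuvB, which forms the DREAM repressor with pocket proteins in resting cells and activates late cell cycle genes with B-MYB. Gas2l3 is known as a target gene of MuvB. MuvB contacts DNA through LIN54 at the cell cycle homology region, and promoters of late cell cycle genes often also hold CCAAT boxes, which NF-Y binds.

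The promoter of Gas2l3 and the second of the Gas2 promoters are shown because both hold a form of the cell cycle homology region and a CCAAT box, while a fall was called for Gas2l3 and no change for Gas2. Each window runs from 250 bases before to 50 bases after an annotated start, is taken from the RefSeq promoter table of GRCm38.p6, and is written 5′ to 3′ on the gene's strand. Of the 3 members, 2 have entries in that table. The Gas2l3 window lies at chr10:89443918-89444217 on the minus strand, and the Gas2 window at chr7:51878717-51879016 on the plus strand. Capitals mark every match on either strand to TTTGAA (the cell cycle homology region), TTCGAA (a variant of it), CCAAT (bound by NF-Y), TAACNG (a Myb motif), GGAATG (the motif of TEAD factors, the DNA-binding partners of YAP) and TTCCCGC (an E2F motif).
Gas2l3 promoter: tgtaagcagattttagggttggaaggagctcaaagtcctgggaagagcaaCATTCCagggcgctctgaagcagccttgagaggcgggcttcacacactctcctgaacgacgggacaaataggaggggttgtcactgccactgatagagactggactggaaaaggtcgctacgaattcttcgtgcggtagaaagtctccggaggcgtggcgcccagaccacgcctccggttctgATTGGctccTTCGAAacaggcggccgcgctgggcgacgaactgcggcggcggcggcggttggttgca
Gas2 second promoter: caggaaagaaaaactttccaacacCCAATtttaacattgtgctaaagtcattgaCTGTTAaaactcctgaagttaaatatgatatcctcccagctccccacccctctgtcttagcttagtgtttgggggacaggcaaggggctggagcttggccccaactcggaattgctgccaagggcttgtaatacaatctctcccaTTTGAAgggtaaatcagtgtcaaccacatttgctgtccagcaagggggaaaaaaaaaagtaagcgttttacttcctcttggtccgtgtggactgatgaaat

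In the Gas2l3 window, the variant TTCGAA lies at bases -8 to -3 from the start used for the window. A CCAAT box on the opposite strand lies at -17 to -13, with 4 bases between them. The gene coordinates given below place the 5′ end of Gas2l3 further upstream, at 89443980. By those coordinates TTCGAA lies inside the gene, so its position relative to the start depends on the annotation. A TEAD motif on the opposite strand lies at -200 to -195. Neither TTTGAA nor the Myb and E2F spellings are in this window. TTCGAA reads the same on both strands and is present in 1.56% of the 32851 promoter windows of this length, CCAAT in 37.4%, both together in 0.697%, and GGAATG in 14.7%. Among windows of genes tested, TTCGAA is present in 2% and TTCGAA with CCAAT in 0.921%. A CCAAT box together with either form of the cell cycle homology region, which both printed windows hold, is present in 7.52% of all windows and in 5.76% of the 11618 windows of genes tested. The second Gas2 window holds TTTGAA at -51 to -46, a CCAAT box at -226 to -222 and a Myb motif on the opposite strand at -196 to -191, so that 170 bases separate the CCAAT box from the cell cycle homology region. Over all windows, TTTGAA is present in 17.9%, TAACNG in 23.3% and TTCCCGC in 4.60%. The first Gas2 window (chr7:51861765-51862064) holds none of the 6 spellings. By the gene coordinates given below Gas2 starts at 51861791, so most of this window lies inside the gene. Sequence upstream of that gene start was hardly searched. The first Gas2 window has 80.7% G and C and 59 CpG sites, against 44.7% and 3 in the second Gas2 window and 59.0% and 24 in that of Gas2l3. The counts are per gene and do not tell which Gas2 start KPL cells use. These matches describe sequence only, and no binding data were analysed here.

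**Figure D1:**
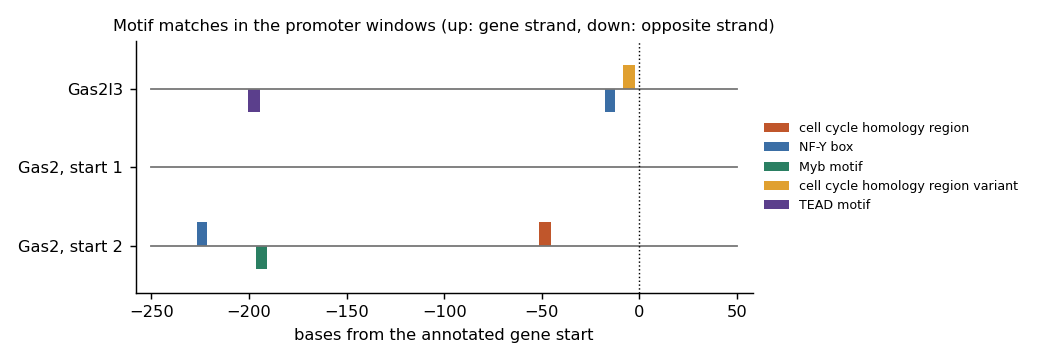
Motif matches in the promoter windows of Gas2l3 and of the first and second Gas2 start, by distance in bases from the annotated start (dotted line). Boxes above a line are on the gene's strand and boxes below it on the opposite strand. The NF-Y box stands for the CCAAT match. The Gas2l3 pair at -17 to -3 sits next to the start used for the window, and the first Gas2 window is empty.

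Library totals lay between 5859826 and 5913942 reads, so depth hardly differed between groups. Control libraries held 156, 124 and 159 reads of Lin9 and 4-OHT libraries 108, 107 and 101, a lower level in each 4-OHT library, and the whole-gene count can include reads from exons outside a deleted part. The epithelial keratin genes Krt8, Krt18 and Krt19 stood at 1299.9 to 1935 CPM over the libraries, while the surfactant genes Sftpc and Sftpa1 had no reads, Sftpb had 3 in all libraries together, and Nkx2-1, the lung lineage factor gene, lay at 4.23 to 7.85 CPM. The lung lineage is thus only weakly marked in this RNA. The summed level of 3 endothelial markers was 2.38 to 2.89 CPM in control and 2.21 to 4.06 CPM in 4-OHT libraries. The other marker sums did not overlap between groups, and their difference was not tested. Such a separation, in either direction, was shown by 24.3% of all genes tested. That of 5 fibroblast and mesenchyme markers was 2770 to 2803 CPM in control and 3064 to 3126 CPM in 4-OHT libraries, nearly all of it Vim, which rose by 0.15 on the log2 scale (edgeR adjusted p = 1.2e-05), while the fibroblast genes Col1a2 and Dcn had 2 reads each in all libraries together. That of 10 tumour and epithelial markers was 6113 to 6151 and 6197 to 6315 CPM, with Epcam and Cdh1 lower (log2 fold changes -0.38 and -0.14) and Hmga2 higher (0.15). The part of these markers in the results that follow was not tested. Nothing in the labels says that replicates are separate cultures, so the p-values cover only the variation among these libraries, possibly technical.

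Gas2l3 RNA fell to 0.456 times its control level after 4-OHT (95% interval 0.401 to 0.519), while no change was called for Gas2 or Gas2l1. Levels are given as CPM, read counts scaled to a common library size with TMM factors. Differences are log2 fold changes of 4-OHT over control from edgeR's quasi-likelihood test, with p-values adjusted by Benjamini-Hochberg over all 13355 genes and called under 0.05. By this rule 1 of the 3 members was called, while 9.79% of all genes tested were called, 5.17% as lower and 4.61% as higher.

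Gas2l3 (ENSMUSG00000074802, chromosome 10, 89408822 to 89443980, with RefSeq coordinates of GRCm38.p6 here and below), the cytokinesis linker, had 298, 280 and 297 reads in control and 160, 137 and 107 reads after 4-OHT. These counts correspond to 51.0, 48.1 and 50.9 CPM in control and 27.1, 23.1 and 18.2 CPM after 4-OHT. Every 4-OHT library lay below every control library, a separation in this direction that 12.2% of all genes tested showed. The mean level was 50 ± 1.66 CPM in control and 22.8 ± 4.49 CPM after 4-OHT (SD, n = 3 each). This is a log2 fold change of -1.13, with an SE of 0.09, a 95% interval of -1.32 to -0.95 and an edgeR adjusted p of 2.4e-17. Only 30 of the 13355 genes tested had a lower log2 fold change. Of the genes, 0.322% were called lower with an estimated fall of 2-fold or more, and Gas2l3 was 1 of these 43. A fall of 2-fold was not itself tested, and the 95% interval of Gas2l3 includes smaller falls. When the test asked for more than a 1.5-fold change, Gas2l3 still passed (edgeR glmTreat adjusted p = 4.8e-06), as 1 of 45 genes. In the authors' deposited table the log2 fold change of Gas2l3 is -1.14 with an FDR of 3.0e-34. RNA of whole cultures does not tell apart fewer cells in late cell cycle phases from less of this RNA per cell.

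The 4-OHT libraries were less uniform for Gas2l3 than the control libraries. The 3 control counts had a coefficient of variation of 3.47%, within the 5.86% that counting alone gives at this depth. The 3 4-OHT counts varied by 19.7%, against 8.62% from counting. Relative to the control mean, the 4-OHT libraries retained 0.543, 0.462 and 0.363 of the level in replicates 1, 2 and 3. Without 4-OHT replicate 3, the lowest library, the log2 fold change was -0.995, and without 4-OHT replicate 1, the highest, it was -1.27. Leaving out any 1 of the 6 libraries kept the call, with adjusted p at most 3.7e-11 (edgeR). Lin9 itself stood at 18.3, 18.1 and 17.1 CPM in the same 3 libraries.

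Gas2l1 (ENSMUSG00000034201, chromosome 11, 5054131 to 5065348), the linker of microtubule ends and centrosome, had 333, 347 and 344 reads in control and 372, 332 and 356 reads after 4-OHT. The corresponding levels were 57.0, 59.6 and 59.0 CPM in control and 63.1, 56.0 and 60.4 CPM after 4-OHT, and the groups overlapped. The group means were 58.5 ± 1.35 and 59.8 ± 3.57 CPM, and the log2 fold change of 0.03 had an SE of 0.07 (edgeR adjusted p = 0.856). The 95% interval of the fold, 0.932 to 1.12 times control, leaves room for small changes either way. This is the best counted of the members, with 2084 reads in all.

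Gas2 (ENSMUSG00000030498, chromosome 7, 51861791 to 51995005), the growth arrest gene, had 52, 40 and 60 reads in control and 50, 49 and 37 reads after 4-OHT. The levels were 8.90, 6.87 and 10.3 CPM in control and 8.48, 8.27 and 6.28 CPM after 4-OHT. The lowest value was that of 4-OHT replicate 3, and 1 control library lay below the other two 4-OHT libraries, so the groups overlapped. The means were 8.68 ± 1.72 and 7.67 ± 1.21 CPM, and the log2 fold change of -0.18 had an SE of 0.18 (edgeR adjusted p = 0.650). With 288 reads in all, the 95% interval runs from 0.689 to 1.13 times control, so a fall of up to 31.1% or a rise of up to 13.4% lies within the precision at this depth.

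Gas2l2, the remaining gene of the family, which acts in motile cilia, was not tested. It had 1, 0 and 1 reads in the control libraries and none in the 4-OHT libraries, where a count of 0 allows up to 3 reads, or 0.507 to 0.509 CPM (counting error only). No fold is given, since both groups lie under that floor. The levels of different members are not ranked against each other, because transcript lengths were not used here and longer transcripts give more reads.

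**Figure D2:**
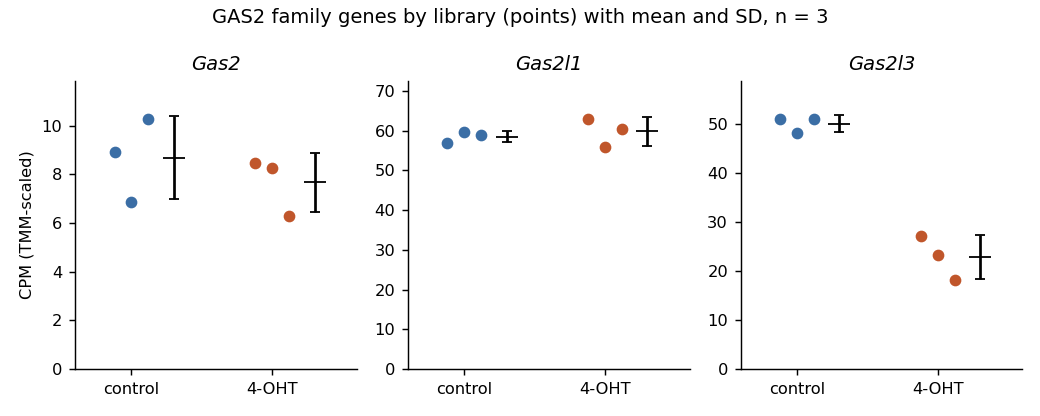
CPM of Gas2, Gas2l1 and Gas2l3 in each library (points; 3 control and 3 4-OHT libraries) with the mean and SD of each group beside them, on linear axes from 0. The 4-OHT points of Gas2l3 lie between 18.2 and 27.1 CPM, below all its control points at 48.1 to 51.0 CPM, whereas the points of Gas2 and Gas2l1 overlap between groups.

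**Figure D3:**
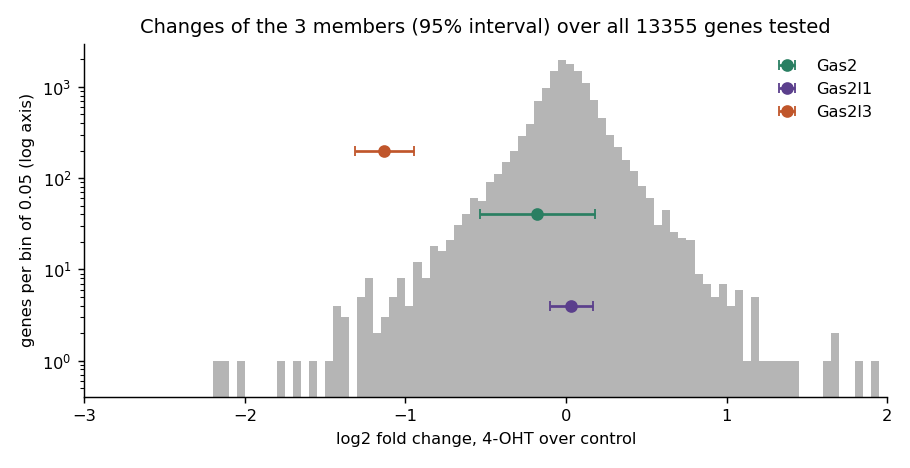
Number of genes tested per bin of log2 fold change (4-OHT over control; grey, log axis of counts) with the 3 members and their 95% intervals drawn as points, whose height has no meaning. Gas2l3 at -1.13 lies in the lower tail, and the intervals of Gas2 and Gas2l1 include 0.

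To ask whether the members differ in their change, the log2 ratio of reads of each pair was taken within each library, where library size cancels. The ratio of Gas2l3 to Gas2l1 was -0.16, -0.31 and -0.21 in control libraries and -1.21, -1.27 and -1.73 in 4-OHT libraries. All 4-OHT values lay below all control values, and the difference between groups was -1.18 (SE 0.17). The ratio of Gas2l3 to Gas2 was 2.51, 2.79 and 2.30 in control and 1.67, 1.47 and 1.52 in 4-OHT libraries, again without overlap, a difference of -0.98 (SE 0.15). An exact permutation test over the 6 libraries, two-sided, gave p = 0.10 for each of these 2 pairs, the smallest p that 3 against 3 libraries allow, and 0.15 after adjustment over the 3 pairs compared. The ratio of Gas2l1 to Gas2 ranged from 2.51 to 3.10 in control and from 2.75 to 3.25 in 4-OHT libraries, with a difference of 0.20 (SE 0.23, exact permutation p = 0.40). With 3 against 3 libraries this exact test cannot give a p under 0.05.

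The listed genes of the chromosomal passenger complex and the spindle midzone fell as well. Of these 12 genes, 12 were lower (edgeR), against 5.17% of all genes tested. Their median log2 fold change was -0.55, against 0.00052 over all genes tested. The list was chosen with earlier results of these data known, so the count is a description only. Genes outside this list were also called lower, as given below. All 12 but Ect2 kept the call without any 1 library and in DESeq2; Ect2, a RhoA activator gene with a log2 fold change of -0.14, lost it when control replicate 1 or 3 or 4-OHT replicate 2 was left out (adjusted p 0.094 to 0.209) and in DESeq2 (0.177). Plk1, the kinase that recruits Ect2 to the midzone, changed by -1.36 (SE 0.07), and it alone in this list had a lower log2 fold change than Gas2l3. Prc1, the bundler of midzone microtubules, changed by -0.94 (SE 0.05). The log2 fold changes of the passenger complex genes were -0.56 for Cdca8, -0.54 for Incenp, -0.49 for Aurkb and -0.27 for Birc5. The median of these 12 genes stood at 0.633, 0.689 and 0.688 of the control mean in 4-OHT replicates 1, 2 and 3, so the order of the 4-OHT libraries seen for Gas2l3 was not that of this list.

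Most genes of the later steps of division were not called. By edgeR the called share exceeded the 9.79% of all genes tested, with calls in both directions. Of 23 tested genes of the contractile ring and abscission, 3 were lower and 2 higher, and the median was 0.04. Cep55, which brings the abscission machinery to the midbody, stood at 87.1 ± 4.15 CPM in control and fell by 0.32 on the log2 scale to 69.6 ± 1.66 CPM (edgeR adjusted p = 2.8e-05). Sept6, a septin gene, stood at 42.1 ± 1.84 CPM in control and rose by 0.34 on the log2 scale to 53.1 ± 6.38 CPM (edgeR adjusted p = 0.0012), a call not made by DESeq2 (adjusted p = 0.0502). Of the 5 calls, 3 held without any 1 library and 1, that of Cep55, in DESeq2. DESeq2 also called fewer of all 13355 genes, 362 lower and 208 higher. The called share of this list thus depends on the method. Anln, which encodes the ring scaffold anillin, lost its call without 4-OHT replicate 2 or without the third control library (adjusted p 0.062 to 0.097), and Chmp4c, an ESCRT subunit gene, without control replicate 2 or 3 or 4-OHT replicate 1 or 2 (0.092 to 0.254).

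The partners of the family at microtubule ends were listed with the spectraplakins, which share the GAS2-related domain. Most of these genes were uncalled as well. Of 12 such genes, 1 was lower and 1 higher, and the median was 0.03. Among all genes tested, 5.17% were lower and 4.61% higher, and counts this small do not set the list apart from that. Ckap5, a microtubule polymerase gene, changed by -0.60 (SE 0.04), and Clip1, a plus-end protein gene, by 0.16, which failed the threshold when any of 4 libraries was left out (control replicates 1 and 2, 4-OHT replicates 1 and 2; adjusted p 0.074 to 0.233) and in DESeq2. The spectraplakin gene Macf1 had a log2 fold change of -0.15 (adjusted p = 0.141) and Dst one of 0.05 (adjusted p = 0.860). Among 9 tested centrosome linker genes, the setting in which Gas2l1 is known, 1 was lower, with a median of -0.07. Beside the 5.17% of all genes tested that were lower, 1 gene does not set this list apart. It was Nek2, the kinase gene that dissolves the linker, which changed by -0.43 (SE 0.06).

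Among 15 tested actin-binding genes with calponin homology or related domains, 4 were higher, with a median of 0.04. Over all genes tested, 4.61% were higher. Lmo7, a junctional linker gene, rose by 0.46 on the log2 scale, from 500.5 ± 8.40 to 687.2 ± 18.9 CPM, and Tagln2, an actin-bundling protein gene, from 484.4 ± 9.33 to 530.0 ± 5.73 CPM, by 0.13. These 2 calls held without any 1 library and in DESeq2. The other two, Actn1 and Pls3, encode actin cross-linkers. Actn1 lost its call when control replicate 1 or 3 or 4-OHT replicate 2 was left out (adjusted p 0.087 to 0.124), Pls3 when control replicate 1 or 3 was (0.075 to 0.080), and DESeq2 called neither. The growth arrest-specific genes are a set defined by induction at growth arrest and to which Gas2 belongs. The median of the 5 tested was -0.18, which is the value of Gas2 itself, and 1 was lower, against 5.17% of all genes tested. A count of 1 does not set this list apart. That gene was Gas5, a noncoding host of small nucleolar RNAs (log2 fold change -0.16, adjusted p = 0.010), a call lost when either control replicate 1 or 4-OHT replicate 2 was left out (adjusted p 0.054 to 0.122) and in DESeq2. Gas1, which encodes a membrane protein of arrested cells, had a log2 fold change of -0.57 (SE 0.30, adjusted p = 0.264) at 3.37 ± 0.608 CPM in control. Of 7 calpain and executioner caspase genes, chosen because Gas2 is a caspase substrate that binds calpain, 1 was higher, with a median of 0.04. Against the 4.61% of all genes tested that were higher, 1 gene does not set this list apart either. It was Cast, the calpain inhibitor gene (log2 fold change 0.12), a call lost when control replicate 1 or 3 or 4-OHT replicate 1 was left out (adjusted p 0.055 to 0.103) and in DESeq2.

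Within MuvB and its partners, 2 of 8 genes were lower, against 5.17% of all genes tested, and the median was -0.05. Lin9 changed by -0.49 (SE 0.11). It is the gene that the treatment deletes, so its fall follows from the design and is no result about the list. The other lower gene was Foxm1, a late cell cycle transcription factor gene, which changed by -0.15. The call of Foxm1 failed when any of 4 libraries was left out (control replicates 1 and 3, 4-OHT replicates 1 and 3; adjusted p 0.054 to 0.093) and in DESeq2.

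**Figure D4:**
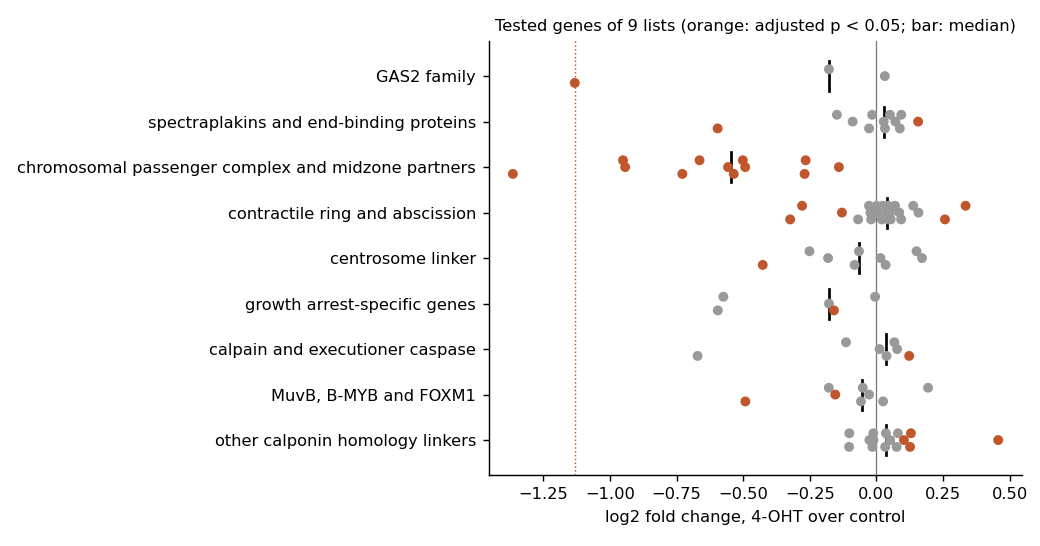
Log2 fold change (4-OHT over control) of each tested gene in 9 gene lists, 1 point per gene, orange where the edgeR adjusted p is under 0.05 and grey otherwise, with a black bar at each list's median. The dotted line marks Gas2l3 at -1.13, and all 12 points of the passenger complex and midzone list are orange and below 0.

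The genes whose pattern over the 6 libraries was most like that of each member were found by the Euclidean distance between log2 CPM values after subtraction of each gene's control mean, among genes with a mean CPM within 4-fold. These are descriptions, since many genes were compared over few libraries. Likeness in fold change and in the order of libraries is largely what the distance selects for. For Gas2l3, among 7778 genes, they were Aldh1a1, a retinaldehyde dehydrogenase gene (distance 0.277), Ccnf, which encodes cyclin F (0.344), and Cenpf, a kinetochore protein gene (0.409). Their log2 fold changes were -1.19, -1.21 and -1.30, and in each of the 3, as in Gas2l3, 4-OHT replicate 3 was the lowest library. For Gas2l1, among 7399 genes, they were Jak2 (0.0492), Galnt10 (0.0528) and Rsf1 (0.0532), none of them called. For Gas2, among 5364 genes, they were Pdia5 (0.176), Cd274 (0.204) and Txlng (0.224), also uncalled, and these share its low values in control replicate 2 and 4-OHT replicate 3.

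**Figure D5:**
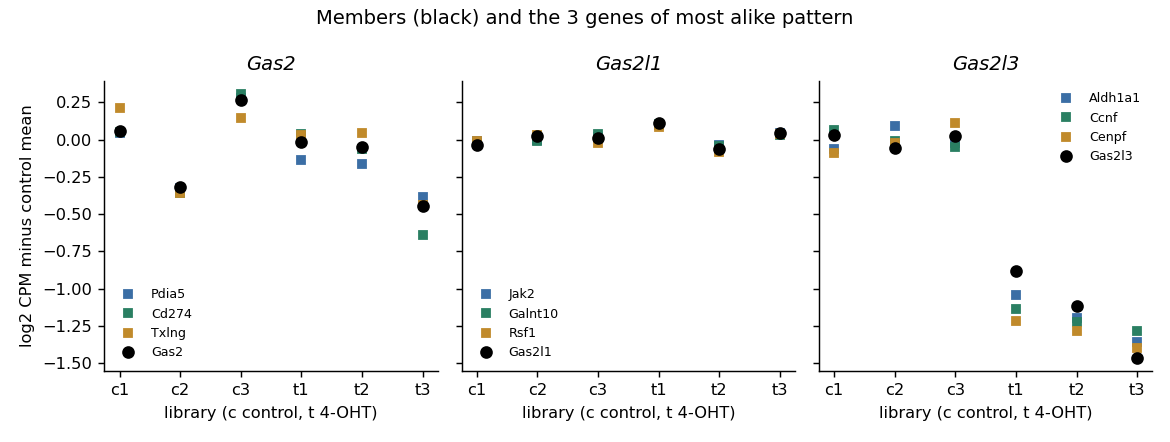
Log2 CPM minus the control mean in each library (c1 to c3 control, t1 to t3 4-OHT) for each member (black circles) and the 3 genes of most alike pattern (squares). The Gas2l3 panel shows all 4 genes near 0 in control and between -0.88 and -1.46 in 4-OHT libraries, while the Gas2 and Gas2l1 panels show no separation of the groups.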

How the data were processed

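RNA-seq of the 3 control and 3 4-OHT libraries of KPL cells was used; the 27 ChIP samples of the series were not analysed here. The authors deposited raw read counts for each Ensembl gene, in whole numbers. Their comparison table gives, per the file headers, a log2 fold change, a log2 mean CPM, a p-value and an FDR for each gene. Tools named in the submitters' processing notes, without roles, are edgeR, bedtools 2.26.0, Bowtie 1.1.2, TopHat2 2.1.0 and Bowtie2, and the mouse builds named are mm10 and GRCm38.p6. How reads were assigned to genes, and whether by strand, is not given in the sources used here, so overlapping or antisense genes cannot be told apart.

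Of 38951 lines, 27 repeats of 12 IDs were dropped (0.109% of the reads). The main test used edgeR 4.0.16 in R 4.3.3 (filterByExpr with minimum count 10 and total 15, TMM, robust quasi-likelihood F test, two-sided, no block), fitted over all 13355 genes, with limma 3.58.1 and DESeq2 1.42.0 as alternatives. SE is the log2 fold change divided by the root of F, and 95% intervals use its degrees of freedom. Ratios between members used reads + 0.5. The procedure was tested on simulated data. Symbols of 7 listed genes that the matrix gives as dates or older names were looked up by Ensembl ID. Members and lists were chosen with earlier results of these data known. Named genes were the members, Gas2l2 and Lin9, the 2 members with the smallest p per list among those called (or the best expressed), and 3 genes of most alike pattern per member; Ect2, Cdca8, Incenp, Aurkb, Birc5, Anln, Chmp4c, Actn1, Pls3, Macf1, Dst, Gas1 and the marker genes given with values were named after their values were seen. Protein sequences were not used here, and the immune marker list is not reported here.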

Additional observations from a re-analysis of the deposited data

How the results depend on the processing

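The fall of Gas2l3 was called in each of 16 alternatives. Its log2 fold change lay between -1.15 and -1.12 over the 10 settings that keep all libraries (library totals alone, RLE and upper quartile scaling, no filter, a CPM filter, no robust step, a replicate block, DESeq2, limma-voom and, added after seeing the data, a 1.5-fold null hypothesis) and between -1.27 and -0.995 when 1 library was left out. Gas2 and Gas2l1 were called in none of the 16. Without 1 library, the log2 fold change of Gas2 lay between -0.32 and -0.04. That of Gas2l1 lay between -0.0071 and 0.078, below 0 without 4-OHT replicate 1. Differences in log2 ratio kept their sign throughout, from -1.27 to -1.02 for Gas2l3 to Gas2l1, from -1.10 to -0.85 for Gas2l3 to Gas2 and from 0.056 to 0.37 for Gas2l1 to Gas2 without 1 library. Over all genes, 691 were lower and 616 higher. DESeq2 called 362 and 208. The 1.5-fold null hypothesis left 45 and 0 (edgeR glmTreat; 92 and 44 at an unadjusted p under 0.05). Without 1 library, 508 to 643 were lower and 403 to 542 higher. The cause of these differences in count was not tested. Same-numbered libraries did not deviate together (correlations -0.0097, 0.0096 and -0.026), so no pairing by number was seen. These correlations cannot exclude a pairing, since counting noise in genes with few reads could hide it. With the replicate block Gas2l3 changed by -1.13, Gas2 by -0.18 and Gas2l1 by 0.03, and 665 genes were lower and 579 higher. Among the called genes of the lists, the block ended the call of Actn1 (edgeR adjusted p = 0.0504) and no other. Depth limits Gas2 most, with 37 to 60 reads per library.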
